A study of Nomascus leucogenys and Hoolock leuconedys and Nomascus gabriellae with 23 samples.

Results

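The genes described here, of the cilium and the centrosome, are CEP164, CEP112, CFAP70, IFT88, BBS9, DNAH3 and NEK1, 7 in all. They were chosen by name, with earlier results of these data known. Every site that the deposited table of LAVA insertions lists under one of these names was taken, whatever its position relative to the gene. This gave 13 sites in 7 genes, of 5490 sites and 2607 gene names in the table. LAVA is a composite retrotransposon of gibbons, named after the L1, Alu, VNTR (variable number of tandem repeats) and Alu-like pieces from which it is assembled. Blood DNA of 23 gibbons was sequenced across the genome, and the table records for each animal whether LAVA was called at a site. The animals were 11 Nomascus leucogenys, 2 Nomascus gabriellae, 2 Hylobates moloch, 1 Hylobates lar, 1 Hylobates muelleri, 1 Hylobates pileatus, 3 Hoolock leuconedys and 2 Symphalangus syndactylus. By genus this makes 13 Nomascus, 5 Hylobates, 3 Hoolock and 2 Symphalangus. No treatment, age or kinship is given, and the read depth behind the calls is unknown.

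A primary cilium grows from a basal body, which is the older centriole of the centrosome docked at the cell membrane by its appendages. Cargo moves along the growing shaft on trains of intraflagellar transport proteins, and the BBSome sorts membrane proteins into and out of the cilium. Motile cilia and sperm tails bend because axonemal dynein arms slide the microtubules of the shaft. Inherited defects in these parts cause the diseases called ciliopathies. Orientation is given below for each site because antisense LAVA in introns has been linked to early transcript termination in reporter constructs. No expression was measured in these samples.

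The 13 sites fell into 3 kinds by their carriers. In CEP164, CEP112, CFAP70 (a pair), BBS9 and DNAH3, 6 sites were carried by all 23 animals. The NEK1 site was carried by all 13 Nomascus and by no other animal. The remaining 6 sites, in CEP164, CEP112, CFAP70 and IFT88, had no Nomascus carrier, and 5 of them were carried in Hoolock. Over all 13 sites, 7 had a Nomascus carrier and 11 a Hoolock carrier, against 43.4% and 60.1% of all listed sites. No site of the 7 genes was private to Hylobates or to Symphalangus, where 15.1% and 9.58% of all listed sites were. Private to Hoolock were 3 of the 13 sites, against 21.3% of all listed sites. Of all listed sites 16.7% were carried by all 23 animals and 52.3% in a single genus, against 6 and 4 of the 13 sites. A single call among the 299 at these sites was missing.

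**Figure D1:**
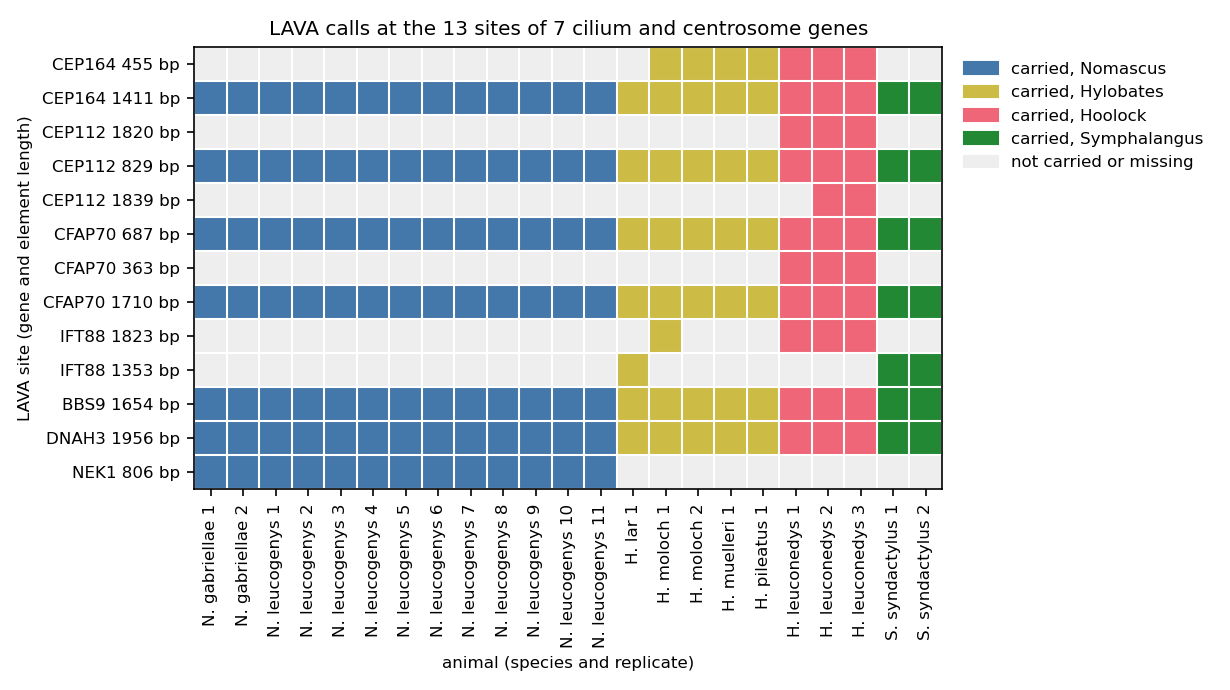
Calls at each of the 13 sites (rows, named by gene and element length in bp) in each of the 23 animals (columns, by species and replicate). Coloured cells are carried insertions, coloured by genus, and grey cells are absent or missing calls. Of the rows, 6 are filled for all animals, the NEK1 row is filled for the 13 Nomascus alone, and the IFT88 rows hold single Hylobates carriers.

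The table holds a pair of site forms that have to be kept apart. At interval sites the position spans the element, and at single-base sites it is a point. All 1118 interval sites of the table were carried by N. leucogenys replicate 1, so no interval site can be missing from Nomascus. For the same reason no interval site can be private to another genus. Of single-base sites 18.9% were private to Hylobates and 12.0% to Symphalangus. Of the 13 sites, 7 were interval sites and 6 single-base sites, while 20.4% of all listed sites were interval sites. Carriage by all 23 animals was found at 81.0% of interval sites and at 0.229% of single-base sites in the table, and at 6 of 7 and 0 of 6 sites of these genes. The sites carried by every animal in the 7 genes are thus all of one form, and form and sharing cannot be told apart here.

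CEP164 encodes a protein of the distal appendages of the mother centriole, needed for docking the basal body. The gene (ENSG00000110274, chromosome 15) had a pair of intronic sites, both antisense to the gene and 14850 bp apart. The 1411 bp element from 17853983 to 17855393 was carried by all 23 animals. The 455 bp element at 17839133 was carried by 3 of 3 Hoolock, by 4 of 5 Hylobates, by 0 of 2 Symphalangus and by 0 of 13 Nomascus. Both H. moloch, the H. muelleri and the H. pileatus carried it, and the H. lar did not. The same set of 7 carriers was found at only 3 other sites of the table. All positions follow the deposited table, numbered from 1, and the sources used here name no genome build.

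CEP112, a gene for a coiled-coil protein of the centrosome, had 3 intronic antisense sites on chromosome 19 (ENSG00000154240). The 829 bp element from 64979765 to 64980593 was carried by all 23 animals. The 1820 bp element at 64668236 was carried by 3 of 3 Hoolock and by none of the 20 other animals. The 1839 bp element at 65018710 was carried by Hoolock replicates 2 and 3, was called absent in Hoolock replicate 1, and had no carrier in the 20 other animals. Hoolock replicate 1 had the most missing calls of any animal over the table, 170 of 5490, against 59 and 49 in the other Hoolock. Of 219 sites carried by a pair of Hoolock animals and no other animal, replicate 1 was the one without at 102. Whether its calls missed insertions was not tested.

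CFAP70 encodes an axonemal protein of motile cilia and sperm tails. The gene (ENSG00000156042, chromosome 18) had 3 intronic antisense sites, and 2 of them were carried by all 23 animals. These were a 687 bp element from 30466078 to 30466764 and a 1710 bp element from 30568467 to 30570176, 101703 bp apart. Between them, at 30503213, lay a 363 bp element that was carried by 3 of 3 Hoolock and by none of the other 20. CEP112 and CFAP70 thus each paired elements shared by every animal with an element found in all Hoolock animals alone. In Hoolock the gene held all 3 elements, and in each other animal it held 2.

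IFT88, a core subunit of the intraflagellar transport complex that builds cilia, was the one gene of the 7 with more than 1 site and none shared by all animals. Its pair of elements (ENSG00000032742, chromosome 5, both intronic and antisense) lay 91855 bp apart, and no animal carried both. The 1823 bp element at 64372990 was carried by 3 of 3 Hoolock and, outside that genus, by H. moloch replicate 1. The other H. moloch did not carry it, and the call of N. leucogenys replicate 7 was missing. The 1353 bp element at 64464845 was carried by both Symphalangus and by the H. lar. No Nomascus animal carried either element, so at IFT88 the 13 Nomascus had no LAVA call.

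The carriers of each IFT88 element came from a pair of genera. Carriers in Hoolock and Hylobates alone were found at 175 sites (3.19% of the table), of which 20 had all 3 Hoolock and 1 Hylobates. Carriers in Symphalangus and Hylobates alone were found at 130 sites (2.37%), of which 18 had both Symphalangus and 1 Hylobates. The exact carriers of the 1823 bp element recurred at 2 other sites and those of the 1353 bp element at 6. In each of the pair the Hylobates call rested on 1 animal, and no read number stands behind it in the table.

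BBS9, DNAH3 and NEK1 had 1 site each. BBS9 encodes a subunit of the BBSome, and its intronic antisense element of 1654 bp (ENSG00000122507, chromosome 17, 75427533 to 75429186) was carried by all 23 animals. DNAH3 encodes an axonemal dynein heavy chain. Its element of 1956 bp (ENSG00000158486, chromosome 2, 88802108 to 88804063) was the only one of the 13 outside an intron and the only one in sense orientation, and it was carried by all 23 animals. The table places it in the promoter class, whose distance from the gene start is not given. That class held 173 sites, of which 33 were carried by all 23 animals and 13 of those were in sense orientation.

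NEK1 encodes a kinase of the NIMA-related family that acts at the centrosome and cilium and in the DNA damage response. Its intronic antisense element of 806 bp (ENSG00000137601, chromosome 7b, 93298116 to 93298921) was carried by 11 of 11 N. leucogenys and 2 of 2 N. gabriellae. None of the 5 Hylobates, 3 Hoolock or 2 Symphalangus carried it. The table held 17 sites with exactly these carriers, of 657 to 1875 bp with a median of 928 bp, and 5 of the 17 were intronic and antisense. The nearest other listed site lay 379249 bp away in intergenic sequence.

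Carriers of each genus were compared with those of the other genera by a two-sided Fisher's exact test at every site, with Benjamini-Hochberg adjustment over 5490 sites and a threshold of 0.05. The 4 comparisons use the same 23 animals and are not independent of each other. Animals of a species may be related, so the p-values describe these animals. The 6 sites carried by every animal cannot differ in any of the comparisons.

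Nomascus against the other genera gave 1 higher site, that of NEK1, and 1 lower site, the 455 bp element of CEP164. Of all 5490 sites 3.01% were called higher and 4.79% lower in this comparison. NEK1 had 13 of 13 carriers (95% exact interval 75.3 to 100%) against 0 of 10 (0 to 30.8%), adjusted p = 8.42e-05. The unadjusted p of 8.74e-07 is the smallest that 13 against 10 animals allow, and 57 sites of the table had it. As an interval site, NEK1 could not have been without a Nomascus carrier. At the CEP164 site 0 of 13 Nomascus (0 to 24.7%) stood against 7 of 10 other animals (34.8 to 93.3%), with an adjusted p of 0.00824 by Fisher's exact test. The carriers differed by 70 percentage points. The 1823 bp element of IFT88, in 0 of 13 Nomascus and 4 of 10 others, did not pass (Fisher's exact test, unadjusted p = 0.0237, adjusted p = 0.126).

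Hoolock against the other genera gave 3 higher sites, the 1820 bp element of CEP112, the 363 bp element of CFAP70 and the 1823 bp element of IFT88, and 0 lower sites, also at an unadjusted p under 0.05. Of all 5490 sites 18.7% were called higher and 0.182% lower. At the CEP112 and CFAP70 sites 3 of 3 Hoolock (29.2 to 100%) stood against 0 of 20 (0 to 16.8%), adjusted p = 0.00326 by Fisher's exact test. Both are listed only through their Hoolock carriers, so higher in Hoolock was the only direction open to them. Their p is the smallest that 3 against 20 animals allow, and 952 sites of the table had it. At the IFT88 site 3 of 3 stood against 1 of 20 (0.127 to 24.9%), adjusted p = 0.0126 by Fisher's exact test. This call was lost without any 1 of the 3 Hoolock animals (exact test, adjusted p from 0.0648 to 0.0684). The 1839 bp element of CEP112, with 2 of 3 Hoolock against 0 of 20, did not pass (adjusted p = 0.0512 by Fisher's exact test). It passed without Hoolock replicate 1 (adjusted p = 0.0225), with each form of site adjusted separately (0.0412) and among sites of at least 540 bp (0.0432), all by the same exact test. Replicate 1 is the Hoolock animal that lacks this element, and without replicate 2 or replicate 3 the adjusted p was 0.349 by that test. The CEP164 site of 455 bp, in 3 of 3 Hoolock and 4 of 20 others, did not pass (Fisher's exact test, adjusted p = 0.0828).

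In Hylobates, 0 of the 13 sites were called higher or lower, where 11.5% of the table was called higher and 0.856% lower. The unadjusted Fisher's exact p was under 0.05 at 2 of them, the 455 bp element of CEP164 with 4 of 5 against 3 of 18 carriers (adjusted p = 0.116) and NEK1 with 0 of 5 against 13 of 18 (adjusted p = 0.0554). Without the H. lar, the 1 Hylobates that lacks it, the CEP164 site passed with an adjusted p of 0.0432 by the exact test. Without any 1 of its 4 Hylobates carriers, the adjusted p was 0.223 to 0.273 by the same test. The NEK1 site passed without any 1 Hoolock or Symphalangus animal (exact test, adjusted p from 0.0472 to 0.0478). Its 13 carriers outside Hylobates were all Nomascus, and Hoolock and Symphalangus lacked it as Hylobates did. Leaving out 1 of these non-carriers can only raise the carrier share of the other genera.

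In Symphalangus, 0 of the 13 sites were called, where 9.58% of the table was called higher and 0.0364% lower. The 526 sites called higher were those carried by both Symphalangus and no other animal, and no other pattern was called higher. Listed sites have at least 2 carriers, so any site private to Symphalangus is carried by both animals. The only one of the 13 with an unadjusted p under 0.05 was the 1353 bp element of IFT88. In 2 of 2 Symphalangus and 1 of 21 others, it had an unadjusted p of 0.0119 and an adjusted p of 0.115 by Fisher's exact test. It passed without the H. lar (exact test, adjusted p = 0.0444), where no carrier outside Symphalangus was left.

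Variation among animals of one genus was found at 4 of the 13 sites. Hylobates calls were mixed at the 455 bp element of CEP164 and at both IFT88 elements, and Hoolock calls at the 1839 bp element of CEP112. The 13 Nomascus animals had the same state at every site once the missing IFT88 call was taken as not carried, and so had the 2 Symphalangus. In the whole table calls were mixed at 22.7% of sites within Nomascus, 33.1% within Hylobates, 19.0% within Hoolock and 9.89% within Symphalangus. Within Nomascus that share was 1.70% at interval sites and 28.1% at single-base sites. The 7 sites with Nomascus carriers in these genes were all interval sites. The pair of Nomascus species did not differ at any of the 13 sites.

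Counted per animal, each of the 13 Nomascus and both Symphalangus carried 7 of the 13 sites. The set of 7 sites in Nomascus differed from that of Symphalangus by 1 site, NEK1 in the former and the 1353 bp element of IFT88 in the latter. Hylobates animals carried 7 sites, apart from H. moloch replicate 1 with 8, a mean of 7.2 ± 0.447 (SD, n = 5). Hoolock animals carried 10, 11 and 11 sites, a mean of 10.7 ± 0.577 (SD, n = 3), above every other animal. Of all listed sites, a Nomascus animal carried 1478 to 1736, a Hylobates animal 1995 to 2411, a Hoolock animal 2709 to 2882 and a Symphalangus animal 2267 or 2274. Hoolock was thus the highest genus on both counts. Nomascus, lowest over the table, was level at these genes with Symphalangus and with all Hylobates but H. moloch replicate 1. The 7 sites of each Nomascus were the interval sites, a form with a Nomascus carrier at every site of the table. That form made up 7 of these 13 sites and 20.4% of the table. With 6 of the 13 sites carried by all animals, the counts can differ by 7 at most. Summed element length was 9053 bp in each Nomascus, 8702 to 10525 bp in Hylobates, 12708 to 14547 bp in Hoolock and 9600 bp in each Symphalangus.

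**Figure D2:**
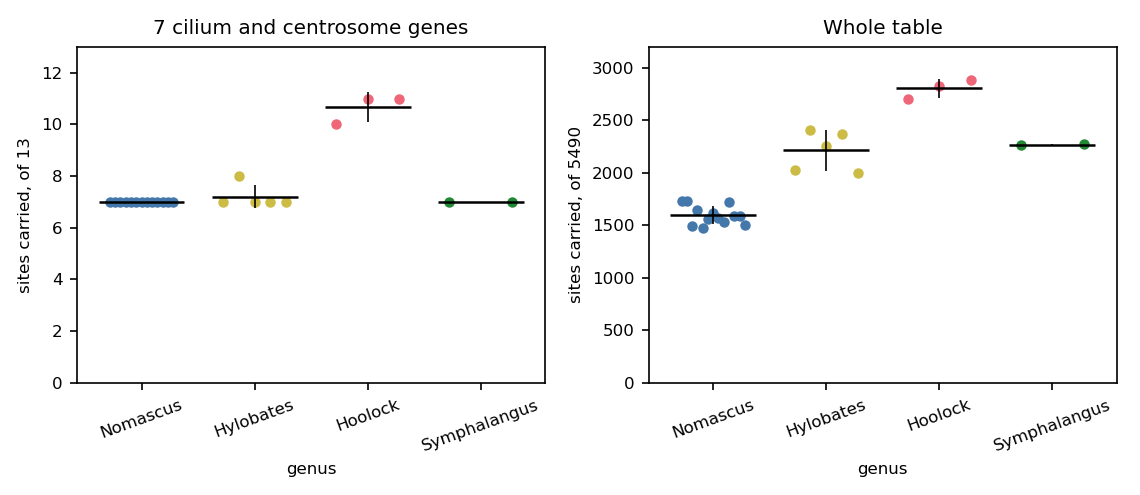
Sites carried per animal (points) by genus at the 7 genes (left, of 13 sites) and in the whole table (right, of 5490 sites). Horizontal bars are means and vertical bars 1 SD. Hoolock animals, with 10 to 11 sites, lie above all others on the left, and Nomascus and Symphalangus all sit at 7.

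All 12 intronic sites of the 7 genes were antisense to their gene. Of all 2745 intronic sites 38.4% were in sense orientation, 25.6% at interval sites and 41.6% at single-base sites. The 12 comprised 6 interval and 6 single-base sites, so both forms lay antisense without exception here. Among the 27 intronic sites of the other cilium and centrosome genes listed below, 10 were in sense orientation, and no test was run of the difference. Because the genes were chosen with earlier results of these data known, these shares describe the chosen genes only.

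Element lengths ranged from 363 to 1956 bp with a median of 1411 bp, against a median of 1309 bp over the table. The length had different meanings at the 2 forms. At all 4372 single-base sites it equalled the stretch of LAVA consensus covered, and that stretch always ended at consensus base 1838 or 1839. At 82.8% of interval sites it was longer than the stretch, and its median excess over all interval sites was 144 bp. Among the 7 interval sites of these genes it was longer at 6, by 55 bp at NEK1 to 551 bp at the CEP164 element, and it was 22 bp shorter at BBS9.

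The sites without Nomascus carriers included both nearly complete and heavily truncated elements. The 1839 bp element of CEP112 covered the consensus from base 0 in the table's numbering. The 1823 bp element of IFT88 began at base 15 and the 1820 bp element of CEP112 at base 19. The 1353 bp element of IFT88 began at base 486. At the short end, the 455 bp element of CEP164 began at base 1383, close to a point shared by many elements, since 955 of the 4372 single-base sites (21.8%) began within 10 bases of it. The 363 bp element of CFAP70 began at base 1475, where 18 single-base sites (0.412%) began within 10 bases, and 1.42% of single-base sites were shorter. The DNAH3 element was the longest of the 13 and began at base 37, and 7 of the 173 promoter sites were longer.

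**Figure D3:**
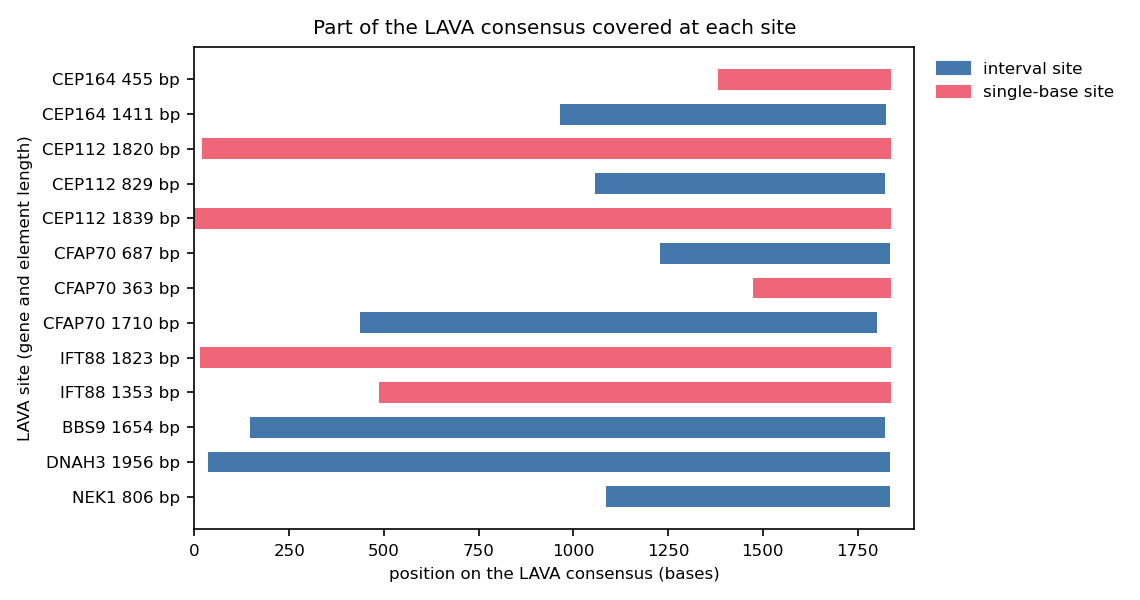
Stretch of the LAVA consensus covered at each of the 13 sites (horizontal axis, consensus position in bases), coloured by form of site. All bars end near the right edge, from base 1801 to 1839, and differ mainly in where they begin, from base 0 in CEP112 to base 1475 in CFAP70.

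Other genes of the cilium and centrosome were looked up by name in 9 lists of 168 names in all, which include the 7 genes. Of these names 32 had at least 1 site, 41 sites in all, of which 13 belong to the 7 genes. Outside them, 25 genes held 28 sites, 7 of which were carried by all 23 animals, in IFT80, TTC26, CFAP77, CEP78, NINL, ODF2 and INVS. The centrosomal CEP list had 6 of 36 names with 9 sites, the cilia and flagella associated proteins 4 of 33 with 8, and the axonemal dynein heavy chains 5 of 13 with 6. Intraflagellar transport complex B had 4 of 19 with 5 sites, complex A 1 of 7 with 1, the BBSome and its assembly factors 1 of 12 with 1, and the NEK kinases 2 of 11 with 2. Other centrosome and centriole proteins had 3 of 14 with 3 sites, and the transition zone and ciliopathy list 6 of 23 with 6. CEP112 and CFAP70 were the only names in the lists with 3 sites, a number reached by 3.57% of all 2607 gene names. CFAP47, CFAP77 and DNAH12 had 2 sites each outside the 7 genes, and every other gene with a site had 1, among them TULP3, CFAP36, CEP128, NEK10 and KIAA0586. Gene length was not taken into account, since no annotation of the same build was used.

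Of the 28 other sites, 4 were called higher in Hoolock, among them those in IFT81, DNAH8 and CDK5RAP2, where 18.7% of all sites were. A further 4 were higher in Symphalangus, in CEP89, RPGRIP1, DNAH14 and CFAP47, where 9.58% of all sites were. In Hylobates 3 were higher, in CEP250, NPHP4 and TCTN3, where 11.5% of all sites were. All these calls are by Fisher's exact test at the adjusted threshold. In Nomascus, where 3.01% of all sites were called higher and 4.79% lower, that test called 0 of the 28, with 1 higher and 2 lower at an unadjusted p under 0.05. IFT81, a partner of IFT88 in the same transport complex, held a 1832 bp intronic antisense element on chromosome 10 at 83739277 in 3 of 3 Hoolock and in no other animal. RPGRIP1, which anchors proteins at the photoreceptor connecting cilium, held a 1838 bp antisense element on chromosome 22a at 42951178 in both Symphalangus alone. CDK5RAP2, which organises the material around the centrioles, held a 555 bp antisense element on chromosome 8 at 99574146 in 3 of 3 Hoolock alone. DNAH8, an axonemal dynein heavy chain, held a 1341 bp intronic antisense element in the same 3 animals alone. DNAH14, another of these heavy chains, held a 1636 bp antisense element in both Symphalangus alone. The sites of CEP89 (1626 bp) and CFAP47 (1837 bp) with these 2 carriers were intronic and in sense orientation.

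Patterns of carriers were matched within the lists by the Jaccard index over 23 animals, the number of shared carriers over the number of animals with either site. The Hoolock elements of CEP112 (1820 bp) and CFAP70 had the same carriers, an index of 1. Each matched 5 sites of other listed genes in this way, among them those of IFT81 and DNAH8. These carriers recurred at 948 sites of the table. The 1839 bp element of CEP112 matched the 454 bp site of DNAH9, again with an index of 1. The 455 bp element of CEP164 had no close match, and its highest index was 0.571, with NPHP4 and with the 1823 bp element of IFT88. For IFT88 the highest index was 0.75 at the 1823 bp element, with 6 tied Hoolock sites, and 0.667 at the 1353 bp element, with 4 tied Symphalangus sites. No site in the lists had the carriers of NEK1, and its highest index of 0.565 was with the sites carried by all animals.

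**Figure D4:**
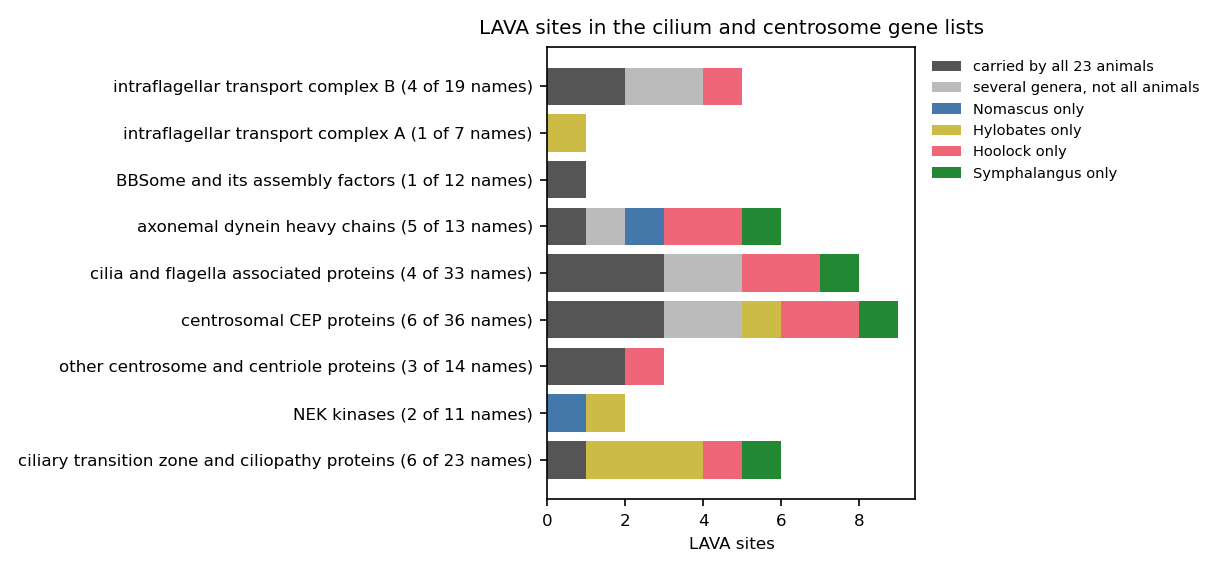
Number of LAVA sites (horizontal axis) in each of 9 cilium and centrosome gene lists, split by carriers, with the number of names holding a site in brackets. The CEP list holds the most sites, 9, and the complex A and BBSome lists hold 1 each.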

How the data were processed

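Gibbon blood DNA was sheared for Illumina libraries of the whole genome, per the labels' protocols, and BWA is named in the submitters' processing notes. The sources used here name no insertion caller, filter, genome build or annotation. The authors deposited 1 table with a call per site and animal (1 carried, 0 not carried, NA missing), and for each site its position, length, consensus position, location class, orientation and human Ensembl gene, per the file headers. Sites have at least 2 carriers. All 23 call columns were matched to animals by title. Replicate numbers follow the order of deposit and pair nothing.

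Missing calls were taken as not carried. Carriers were tested at all 5490 sites with Fisher's exact test and Benjamini-Hochberg adjustment (Python 3.11.15, SciPy 1.17.1, NumPy 2.4.6, pandas 2.3.3). In simulated data the changed sites were set as carried by every animal of 1 genus and by no other animal. The test recovered these for every genus but Symphalangus, whose 2 animals can pass the adjustment only where many sites share their pattern. Its changed sites were recovered, with 1 false call, when they were as many as the table holds private to Symphalangus. Weaker patterns were not simulated, and the unchanged sites were drawn for each animal independently, without genus structure. Intervals are exact Clopper-Pearson 95% intervals and cover counting error only. A genus counted as carrying a site if 1 animal did. Genes were named by rule: the 7 genes with all their sites, every listed gene with a site, with values allowed where a site was carried by all animals of 1 genus and no other animal, and the best Jaccard match. The genes and lists were chosen with earlier results of these data known. One listed gene is not reported here by name. Sequences of these sites were not used here. Alternatives covered missing calls, length, form, adjustment and each animal left out.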

Additional observations from a re-analysis of the deposited data

Results flagged for a closer look

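Hylobates moloch replicate 1 carried 8 of the 13 sites, and each of the other 4 Hylobates carried 7. Its gap to the others made up the whole range of the group (ratio 1, against a critical value of 0.71 for 5 animals). The extra site was the 1823 bp element of IFT88, which no other Hylobates animal carried. The same animal also carried the most sites of its genus over the whole table, 2411 against 1995 to 2374 in the other 4. Among 5 whole-number values that are nearly all equal, any single difference gives this ratio. The critical value marks about 1 in 20 groups of continuous values by chance, a rate that does not apply to such counts. Of the 2 measures examined in this way, summed element length did not stand out.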

How the results depend on the processing

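No paired analysis was made, since each of the 23 samples is a different animal and the replicate numbers pair nothing. The number of sites (13) was 12 in the gene body, 13 with sites within 100 bp merged and 11 at 540 bp or more. The 6 sites in all 4 genera and the 0% sense share did not change under their alternatives. Leaving out missing calls, or taking them as carried, changed no call at the sites of these genes. Under Holm adjustment NEK1 was the 1 site of these genes called, in Nomascus. Holm gave 0 called sites of these genes in Hoolock and 0 lower in Nomascus, and in the whole table it gave 17 higher and 40 lower in Nomascus and 0 in either direction in the other genera, since the smallest p of those comparisons cannot pass it. At 540 bp and above, the short CEP164 element is not among the sites tested, so 0 were lower in Nomascus. The 363 bp CFAP70 element is not tested there either. Hoolock kept 3 higher sites because the 1839 bp CEP112 element was called in its place (Fisher's exact test, adjusted p = 0.0432). In the whole table, 123 were then lower in Nomascus and 270 higher in Hylobates. With forms adjusted separately, sites called lower numbered 8 in Hylobates, 5 in Hoolock and 0 in Symphalangus over the table.

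With each animal left out in turn, the sites of the 7 genes called in Nomascus stayed at 1 higher and 1 lower. Those called in Hoolock ranged from 2 to 3 higher, and Hylobates gave 0 to 1 higher and 0 to 1 lower. Symphalangus gave 0 to 1 higher. Over the table Nomascus had 132 to 179 higher and 220 to 481 lower, Hylobates 378 to 689 higher and 11 to 71 lower, Hoolock 997 to 1050 higher and 4 to 12 lower, and Symphalangus 0 to 533 higher and 0 to 3 lower. The 0 in Symphalangus came from leaving out either of its animals, when 1 animal is left. Depth per animal is unknown, so no call could be weighted by it.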
